A study of Mus musculus with 64 samples.

Results

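Metallothionein and zinc transport genes were followed through bone marrow and spleen of scat mice, which carry 2 mutant copies of Rasa3. The set holds 7 of the 26286 genes in the deposited table: the metallothioneins Mt1 and Mt2, the metal-sensing transcription factor Mtf1, the zinc exporters Slc30a1 and Slc30a2 and the zinc importers Slc39a8 and Slc39a10. They were chosen by their names after the log2 changes of Mt1 and Mt2 in bone marrow SMP, crisis over young wild type, had stood out among all genes. That comparison is therefore described here without a test.

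The protein of Rasa3 turns Ras and Rap1 off by speeding their hydrolysis of GTP, and scat mice alternate between severe anemia and partial recovery. RNA sequencing covered whole tissue, sorted megakaryocyte-erythroid progenitors (MEP) and SMP, sorted as Kit+ CD34+ cells that lack lineage markers and Sca and have low CD16/32, of bone marrow and spleen. There were 64 libraries from 18 mice, 63 of which could be placed in a group. Crisis mice (scat/scat, labelled critical, of the strain CbyJ.Cby-Rasa3(scat)/Llp) gave 18 libraries of 3 mice aged 23 to 28 days. Remission mice (scat/scat, labelled partial remission) gave 17 libraries of 5 mice aged 32 to 58 days. Older wild-type (WT) mice gave 10 libraries of 3 mice aged 32 to 58 days, and young WT mice gave 18 libraries of 7 mice aged 23 to 28 days. The remission mice are older than the crisis mice, so age and state cannot be told apart between them. The scat allele is carried by every cell of the animal.

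Metallothioneins are small cysteine-rich proteins that bind zinc and copper in the cytoplasm. When free zinc rises, MTF1 enters the nucleus and binds metal response elements in the promoters of Mt1, Mt2 and Slc30a1, whose protein ZnT1 carries zinc out of the cell. Transporters of the Slc39 family (ZIP) bring zinc into the cytoplasm, and those of the Slc30 family (ZnT) take it out or into vesicles. Mt1 and Mt2 are also known to respond to glucocorticoids and to oxidative stress, and red cell precursors need zinc for carbonic anhydrase and for heme synthesis.

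Promoters are shown for the 4 members that hold the core letters of the metal response element at their first annotated start, so the set was picked by having them. The sequences are those of RefSeq on GRCm38.p6, 250 bases before the start of the transcript, 5′ to 3′ on the strand of the gene, and all 7 genes were matched by symbol. Capitals mark the 7-base element core, TGCACNC or TGCGCNC, read on either strand.
Mt1, chr8:94178839-94179088, plus strand: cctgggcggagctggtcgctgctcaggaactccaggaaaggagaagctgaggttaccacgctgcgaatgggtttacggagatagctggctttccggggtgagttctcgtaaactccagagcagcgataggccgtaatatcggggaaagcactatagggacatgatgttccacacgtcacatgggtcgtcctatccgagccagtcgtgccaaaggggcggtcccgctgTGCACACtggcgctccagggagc
Mt2, chr8:94172368-94172617, plus strand: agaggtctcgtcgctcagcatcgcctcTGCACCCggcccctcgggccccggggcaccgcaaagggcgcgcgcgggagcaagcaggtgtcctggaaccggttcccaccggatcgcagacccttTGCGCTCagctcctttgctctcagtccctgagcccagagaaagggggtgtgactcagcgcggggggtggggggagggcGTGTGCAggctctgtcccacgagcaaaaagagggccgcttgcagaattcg
Slc30a1, chr1:191906531-191906780, plus strand: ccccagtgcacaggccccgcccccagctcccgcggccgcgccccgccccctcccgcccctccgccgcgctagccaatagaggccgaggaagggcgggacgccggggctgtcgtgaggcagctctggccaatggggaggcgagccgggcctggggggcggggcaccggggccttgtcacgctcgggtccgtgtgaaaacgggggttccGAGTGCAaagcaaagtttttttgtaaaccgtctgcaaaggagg
Slc30a2, chr4:134343216-134343465, plus strand: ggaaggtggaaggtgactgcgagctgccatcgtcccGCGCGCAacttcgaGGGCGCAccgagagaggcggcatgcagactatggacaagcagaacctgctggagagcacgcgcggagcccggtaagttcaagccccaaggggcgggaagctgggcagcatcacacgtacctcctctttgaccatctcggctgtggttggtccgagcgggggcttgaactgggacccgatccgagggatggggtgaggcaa
Further cores followed the start. The stretches that hold them, of at most 30 bases, are:
Mt1, chr8:94179088-94179117, plus strand: ctcTGCACTCcgcccgaaaagTGCGCTCgg
Mt2, chr8:94172619-94172648, plus strand: gtcGTGCGCAggcccaggggcgtgtgctgg
Slc30a1, chr1:191906808-191906830, plus strand: gccGAGCGCAgtcgccgcggacg

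In the 300-base window from 250 bases before to 50 after the start, Mt2 held 4 cores, beginning 223, 128 and 50 bases before and 5 bases after the start. Mt1 held 3 cores, beginning 23 bases before and 3 and 21 bases after it. Slc30a1 and Slc30a2 held 2 each, Slc39a8 held 0 at its first annotated start and 1 at its second, and Mtf1 and Slc39a10 held 0. Of 32851 RefSeq promoters of the same length, 25.7% held at least 1 core, 7.11% at least 2, 1.97% at least 3 and 0.517% at least 4. A match of letters is a description and not a binding site.

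Mt1 (ENSMUSG00000031765, chr8:94179082-94180327) and Mt2 (ENSMUSG00000031762, chr8:94172664-94173568) are neighbours on GRCm38 in the GENCODE annotation. They share 0 stretches of 31 bases with each other in the annotated transcripts, and Mt2 shares 3 with Pip5k1a and Mt1 shares 0 with any gene. The other members are Mtf1 (ENSMUSG00000028890, chr4:124802104-124849800), Slc30a1 (ENSMUSG00000037434, chr1:191906767-191913247), Slc30a2 (ENSMUSG00000028836, chr4:134343181-134354484), Slc39a8 (ENSMUSG00000053897, chr3:135825279-135888572) and Slc39a10 (ENSMUSG00000025986, chr1:46807544-46892852).

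The libraries hold 33.6 M to 107.6 M normalised counts in all (median 50.64 M), and values below are these counts rescaled to a common level within each population. The labels name separate mice as replicates, and the same 3 crisis mice, 2608, 2629 and 2953, gave all 6 populations, so the populations are not independent. Doubt attaches to 2 mice aged 58 days, 2726 (labelled remission) and 27265 (labelled WT, but with 1 further library labelled mutant). Rasa3 in whole spleen had 2121 to 3352 rescaled counts in crisis mice and 4480, 4973 and, in mouse 2726, 21050 in remission mice, against 12660 to 15890 in WT mice, with 7096 in the library of mouse 27265 that has no group. The scat allele leaves a transcript. Rasa3 levels of scat/scat and WT mice overlapped in both MEP populations, both SMP populations and whole bone marrow, so they do not settle the labels. In both SMP populations the crisis libraries lay below WT and the remission group overlapped WT. Whether the labels of these mice were exchanged was not tested, and remission results are given with and without both.

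In crisis, Mt1 and Mt2 transcripts were higher than in young WT mice in every tested population, with every crisis library above every young WT library. From 10.3% (bone marrow MEP) to 28.4% (whole spleen) of all genes lay above in this way in the tested populations, which share the crisis mice. Mt1 rose 2.95- to 16.2-fold and Mt2 6.37- to 44.5-fold in the 4 tested populations where they passed the test, which were both whole tissues, spleen MEP and spleen SMP. In bone marrow MEP both were higher in all 3 crisis libraries but did not pass the test. Bone marrow SMP, where they were first noticed, is described without a test. Nothing is read from the size of its change beside those of the other populations.

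**Figure D1:**
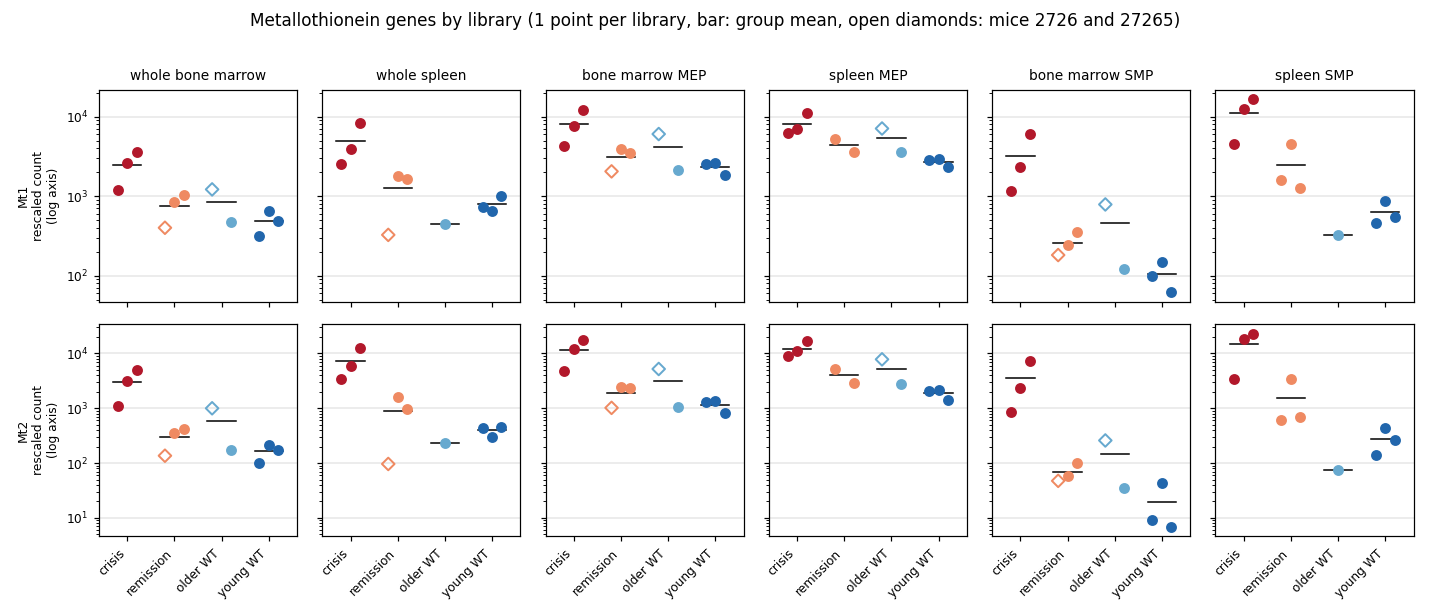
Rescaled counts of Mt1 (upper row) and Mt2 (lower row) on a log axis in each library of the 6 populations, for crisis, remission, older WT and young WT. Bars are group means and open diamonds are the libraries of mice 2726 and 27265. Crisis libraries lie above all young WT libraries in each of the 12 panels, and in bone marrow SMP, which chose the genes, Mt2 reached 7410.4 in a crisis library and 6.98 in a young WT library.

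Mt2 in bone marrow SMP had 861, 2360.2 and 7410.4 rescaled counts in crisis mice 2608, 2629 and 2953, against 9.03, 43.6 and 6.98 in young WT mice. Mt1 had 1170.1, 2344 and 6062 in the same crisis mice, against 98.4, 150.2 and 61.6 in young WT mice. The lowest crisis library was far above the highest young WT library for both genes, and the crisis mice themselves spread widely. The log2 change was 7.34 for Mt2 and 4.70 for Mt1, which ranked 2 and 7 from the top of all genes by change. Of the genes tested there, 2.36% passed the test (360 genes, and 5 to 2957 with 1 library left out). Nothing is read from this for the genes chosen there.

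Spleen SMP showed the same direction. Mt2 had 3418, 18175 and 23073 in crisis mice, against 141, 434 and 263 in young WT mice, and Mt1 had 4477, 12534 and 16501 in crisis mice, against 456, 863 and 548 in young WT mice. Mouse 2608 was again the lowest crisis library, still several times above the WT libraries. In limma's test the log2 change was 5.48 for Mt2 (SE 0.672, adjusted p = 0.0277) and 4.02 for Mt1 (SE 0.448, adjusted p = 0.0277), where 23.6% of all genes tested were called. Both calls were lost when any of the 3 young WT libraries or that of crisis mouse 2953 was left out (limma, adjusted p of 0.0558 to 0.0894), while the changes stayed between 3.65 and 6.34; fewer libraries were fitted in each of these. The count of all genes called moved with them, at 0 or 1 in each of these fits, 2540 without mouse 2629 and 5729 without mouse 2608, against 3635 with all libraries.

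In whole spleen, Mt2 had 3349.9, 5891 and 12553 in crisis mice, against 435, 296 and 464 in young WT mice. Mt1 had 2502, 3940.4 and 8307 in crisis mice, against 726, 657 and 999.7 in young WT mice. The groups did not overlap for either gene. The log2 change was 3.99 for Mt2 (SE 0.427, limma, adjusted p = 0.000203) and 2.46 for Mt1 (SE 0.391, adjusted p = 0.00135), with 46.3% of all genes called. Both calls held with each of the 6 libraries left out in turn.

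In whole bone marrow, Mt2 had 1099, 3165 and 4963 in crisis mice, against 98.8, 218 and 177 in young WT mice. Mt1 had 1195, 2623 and 3638 in crisis mice, against 319, 648 and 479.8 in young WT mice. The lowest crisis library stood above the highest young WT library for both. The log2 change was 4.04 for Mt2 (SE 0.573, limma, adjusted p = 0.0157) and 2.28 for Mt1 (SE 0.435, adjusted p = 0.0283), with 8.85% of genes called (1439 genes, and 94 to 3027 with 1 library left out). The calls depended on single libraries: that for Mt1 was lost without any 1 of 5 libraries, all but crisis mouse 2608, and that for Mt2 without crisis mouse 2629 or young WT mice 2658 or 2955 (limma, adjusted p up to 0.112).

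In MEP the log2 changes of Mt1 and Mt2 were below those in whole tissue of the same organ, a difference that was not tested. In spleen MEP, Mt2 had 8792, 10996 and 16725 in crisis mice, against 2085, 2142 and 1411 in young WT mice, a log2 change of 2.67 (SE 0.242, limma, adjusted p = 0.00759). Mt1 had 6306, 7077 and 11004 in crisis mice, against 2809, 2956 and 2315 in young WT mice, a log2 change of 1.56 (SE 0.199, adjusted p = 0.021). Both were called where 1.17% of all genes were (159 genes, and 8 to 900 with 1 library left out). Mt1 lost its call without crisis mouse 2629 or young WT mice 2658 or 2685 (adjusted p up to 0.103), and Mt2 kept it without any single library. With all 4 groups in the fit neither passed (adjusted p = 0.0778 for Mt1 and 0.0645 for Mt2).

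Bone marrow MEP gave no call for a member, where 0.197% of genes passed (28 of 14239, and 6 to 1693 with 1 library left out). Mt2 had 4772, 11964 and 17650.1 in crisis mice, against 1316, 1351 and 813 in young WT mice, a log2 change of 3.15 (SE 0.474, limma, adjusted p = 0.086). Mt1 had 4226, 7675 and 12274 in crisis mice, against 2511, 2604 and 1823 in young WT mice, a log2 change of 1.69 (SE 0.367, adjusted p = 0.193). The groups did not overlap for either gene. Without crisis mouse 2608, whose levels were nearest to WT, both passed limma's test (adjusted p = 0.000748 for Mt2 and 0.00333 for Mt1), as did 1693 genes in all. Both also passed without rescaling (adjusted p = 1.21e-06 for Mt1 and 1.8e-13 for Mt2).

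The 3 crisis mice kept 1 order throughout. Mouse 2953 had the highest and mouse 2608 the lowest Mt1 and Mt2 level in 6 of 6 populations. The highest level was 1.75 to 5.18 times the lowest for Mt1 and 1.9 to 8.61 times for Mt2. Mouse 2953 did not lead for the transporters Slc30a1, Slc39a8 and Slc39a10, where mouse 2629 was the highest crisis mouse in 5 of 6 populations each. For the transporter Slc30a2 mouse 2953 was the highest in 4 of 6 populations and mouse 2608 the lowest in 6 of 6.

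**Figure D2:**
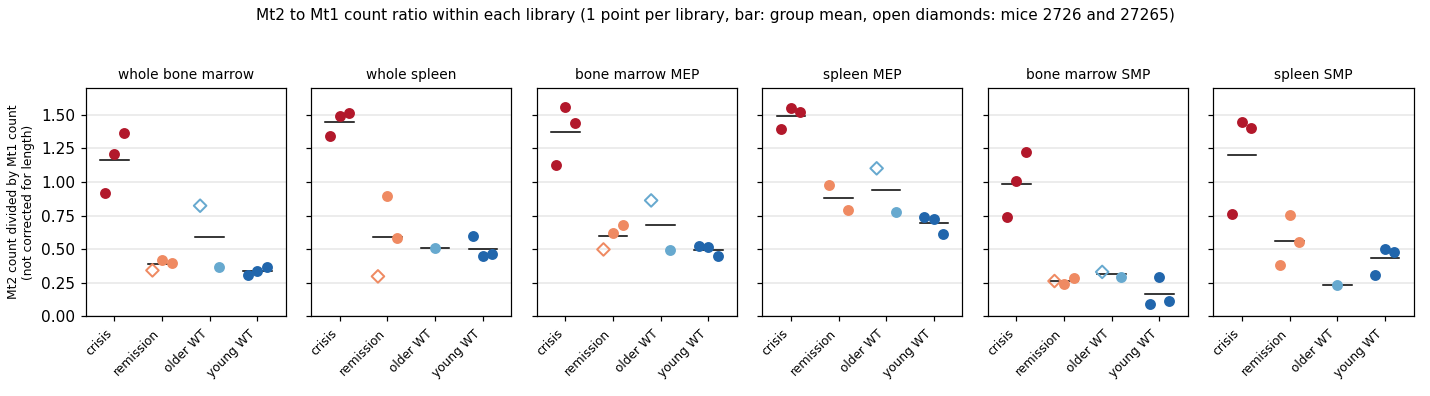
Ratio of the Mt2 to the Mt1 count within each library (linear axis from 0, not corrected for transcript length) for crisis, remission, older WT and young WT in the 6 populations. Bars are group means and open diamonds mark mice 2726 and 27265. In each population, bone marrow SMP, which chose the genes, included, all 3 crisis libraries lie above all young WT libraries. Medians over all populations are 1.38 in crisis and 0.457 in young WT.

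Mt2 moved more than Mt1, which shows in their ratio within a library, where depth and rescaling cancel. The Mt2 to Mt1 count ratio ranged from 0.736 to 1.56 in the 18 crisis libraries (median 1.38). It was 0.241 to 0.976 in the 17 remission libraries (median 0.497), 0.234 to 1.1 in the 10 older WT libraries (median 0.5) and 0.0917 to 0.742 in the 18 young WT libraries (median 0.457). Within bone marrow SMP it was 0.736, 1.01 and 1.22 from the lowest to the highest in crisis, against 0.0917, 0.113 and 0.29 in young WT. Crisis and young WT ratios did not overlap within any of the 6 populations, which include bone marrow SMP, where the genes were chosen. The highest ratio among older WT libraries belongs to mouse 27265.

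**Figure D3:**
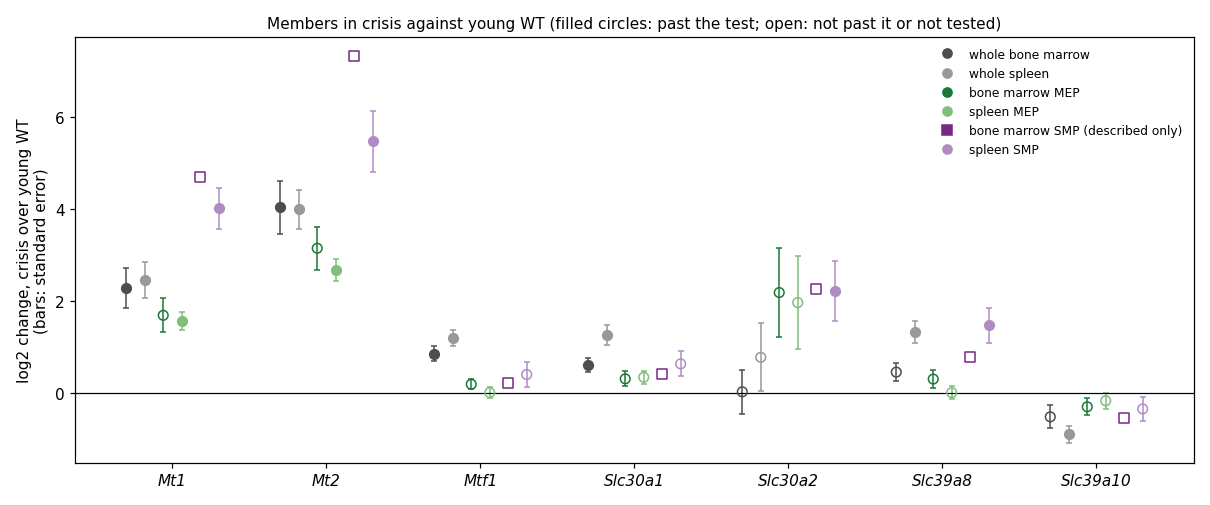
Log2 change of the 7 members in crisis over young WT in the 6 populations, with standard errors. Filled circles passed limma's test, open circles did not, and open squares are bone marrow SMP, which is described only. Mt1 and Mt2 lie above 0 in every population, while Slc39a10 lies below 0 in every population and passed in whole spleen alone.

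The other members differed by tissue. Over the 5 tested populations 16 of 35 member tests were called, 15 higher and 1 lower in crisis, and 8 of them were Mt1 or Mt2. Among all genes 4.66% were called higher and 4.19% lower in whole bone marrow, 22.3% and 24% in whole spleen, 0.183% and 0.014% in bone marrow MEP, 0.576% and 0.598% in spleen MEP, and 12.3% and 11.3% in spleen SMP. Mtf1 and Slc30a1 rose in both whole tissues, Slc39a8 in whole spleen and spleen SMP, Slc30a2 in spleen SMP, and Slc39a10 fell in whole spleen. Without rescaling, limma no longer called Mtf1 (adjusted p = 0.0853) and Slc30a1 (0.286) in whole bone marrow, Slc39a10 in whole spleen (0.0669), or Slc30a2 (0.108) and Slc39a8 (0.103) in spleen SMP. With all 4 groups in the fit it no longer called Slc30a1 (0.055), Slc39a8 (0.185) and Slc39a10 (0.121) in whole spleen. In bulk tissue, a change in the share of cells that express a gene and a change of RNA per cell cannot be told apart.

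Mtf1, the sensor that turns on metallothionein genes, had 6188, 5458 and 8179.6 in whole spleen of crisis mice, against 3135, 2522 and 2887 in young WT mice. Crisis over young WT gave a log2 change of 1.19 (SE 0.176, limma, adjusted p = 0.000765). In whole bone marrow it had 4561, 3718 and 5560.0 in crisis mice, against 2534, 2249.9 and 2794 in young WT mice, a change of 0.85 (SE 0.165, adjusted p = 0.0242). The groups did not overlap in either tissue. The bone marrow call was lost without crisis mouse 2953 or any 1 young WT library (adjusted p up to 0.0773). In the sorted cells Mtf1 did not pass, with log2 changes of 0.40 in spleen SMP, 0.18 in bone marrow MEP and 0.00 in spleen MEP; the untested change of bone marrow SMP was 0.21.

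Slc30a1, the plasma membrane exporter and a known MTF1 target, had 4853, 4938 and 2865 in whole spleen of crisis mice, against 1628, 1936 and 1548 in young WT mice. Crisis over young WT gave a log2 change of 1.26 (SE 0.215, limma, adjusted p = 0.00155). In whole bone marrow it had 2376, 1961 and 1725 in crisis mice, against 1222, 1257 and 1458 in young WT mice, a change of 0.61 (SE 0.152, adjusted p = 0.0464). Its bone marrow call was kept when crisis mouse 2608 was left out and lost without any 1 of the other 5 libraries (adjusted p up to 0.154). In sorted cells its change was 0.30 to 0.63 and did not pass where tested. Crisis libraries lay above all young WT libraries in 5 of the 6 populations, all but bone marrow MEP. The 5 include bone marrow SMP, where Mt1 and Mt2 were noticed. From 10.3% (bone marrow MEP) to 28.4% (whole spleen) of all genes lay above in this way.

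Slc30a2 (ZnT2), which loads zinc into vesicles of secretory cells, was the rarest member. Its level had a median of 24.5 jointly rescaled counts over 63 libraries and was listed at 0 in 1. In spleen SMP it had 128, 201 and 521 in crisis mice, against 22.1, 64.9 and 87.4 in young WT mice, a log2 change of 2.22 (SE 0.654, limma, adjusted p = 0.0406). The groups did not overlap there. Bone marrow SMP had 59.7, 140.2 and 246 in crisis mice, against 23, 33.3 and 22.1 in young WT mice, and the groups did not overlap either. In both MEP populations mouse 2608 was within the range of the young WT mice, and in whole spleen below it, while 2629 and 2953 were above it, and no test passed. The call in spleen SMP held without mouse 2608 and was lost without any 1 of the other 5 libraries (adjusted p up to 0.122).

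Slc39a8 (ZIP8), an importer of zinc and manganese, had 4511, 4313 and 2616 in whole spleen of crisis mice, against 1827, 1513 and 1155 in young WT mice. Crisis over young WT gave a log2 change of 1.32 (SE 0.244, limma, adjusted p = 0.00242). In spleen SMP it had 1780.5, 5947 and 2571 in crisis mice, against 1124, 1151 and 996 in young WT mice, a change of 1.46 (SE 0.382, adjusted p = 0.0316). Both sets of libraries were apart. The spleen SMP call was lost without crisis mouse 2953 or any 1 young WT library (adjusted p up to 0.099). Its log2 change in bone marrow SMP was 0.77, and in whole bone marrow and both MEP populations it was 0.00 to 0.45 and did not pass.

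Slc39a10 (ZIP10), a plasma membrane importer, was the only member called lower. In whole spleen it had 691, 1003 and 735 in crisis mice, against 1447, 1747 and 1313 in young WT mice, a log2 change of -0.91 (SE 0.195, limma, adjusted p = 0.0048). The groups were apart. Bone marrow SMP had 3411, 3889.7 and 2595 in crisis mice, against 4833, 4829 and 4620.5 in young WT mice, also without overlap. In the other 4 populations the groups overlapped and the log2 change of -0.53 to -0.18 did not pass.

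**Figure D4:**
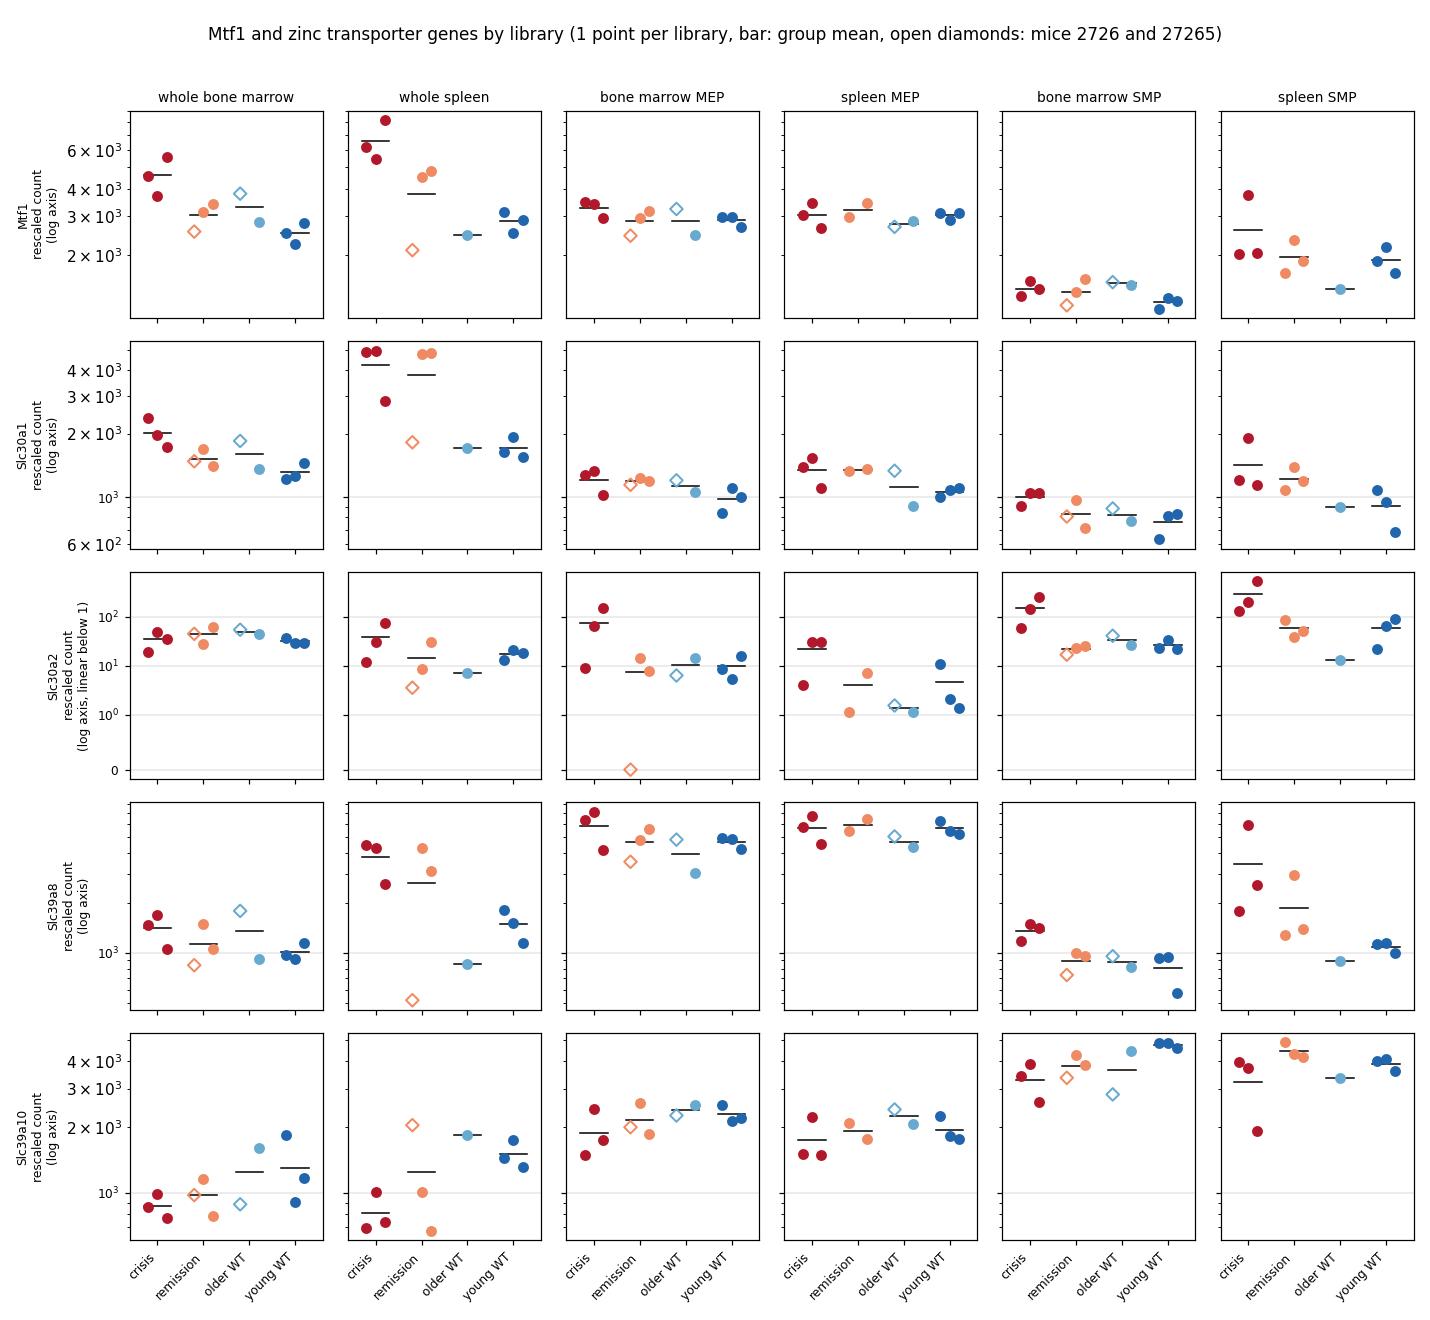
Rescaled counts of Mtf1, Slc30a1, Slc30a2, Slc39a8 and Slc39a10 (rows, log axis; that of Slc30a2 is linear below 1) in each library of the 6 populations for crisis, remission, older WT and young WT. Bars are group means and open diamonds mark mice 2726 and 27265. In whole spleen, the remission libraries of Slc30a1 and Slc39a8 split into 2 near the crisis level and mouse 2726 near or below the WT level.

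Groups that do not overlap are common among all genes in some of these comparisons. Crisis libraries lay above all young WT libraries for 28.4% of genes in whole spleen and 15.3% in whole bone marrow, for 13.6% in spleen MEP and 10.3% in bone marrow MEP, and for 25.7% in spleen SMP. In these 5 populations, which leave out the one the genes were chosen in, Mt1 and Mt2 were above in 5, Slc30a1 in 4, Mtf1 and Slc39a8 in 2 and Slc30a2 in 1, and Slc39a10 lay below in 1. The populations share the crisis mice.

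The erythroid makeup of the libraries moved with the same comparisons. In units of 1000 rescaled counts, the summed level of 12 late erythroid markers was 87.5 to 140.4 in crisis and 32.1 to 52.2 in young WT bone marrow SMP, and 339.9 to 862 in crisis and 88.5 to 322 in young WT spleen SMP. All 12 were detected in each group. Of these markers 9 of 12 in bone marrow SMP, 8 in spleen SMP and 10 in each whole tissue were called higher, among them Rhag, the Rh-associated glycoprotein, with a log2 change of 3.41 in spleen SMP and 4.41 in bone marrow SMP. In the MEP populations 0 of 12 late erythroid markers were called. The sums in bone marrow MEP were 375 to 479.6 in crisis and 301 to 361 in young WT, which did not overlap, and those in spleen MEP, where Mt1 and Mt2 were called, were 393 to 578 in crisis and 389 to 439.8 in young WT, which did. Early erythroid markers were called higher in 5 of 9 (bone marrow SMP), 6 (spleen SMP), 5 (whole bone marrow), 8 (whole spleen), 1 (bone marrow MEP, the transferrin receptor Tfrc) and 0 (spleen MEP). Their sums in bone marrow MEP were apart, at 284 to 344 in crisis and 180.3 to 204 in young WT, and those in spleen MEP overlapped, at 215 to 359 in crisis and 204 to 244 in young WT. Of the 10 stem and myeloid progenitor markers, 6 were lower in spleen SMP and 2 in bone marrow SMP. With 1 library left out, the calls over all genes numbered 5 to 2957 in bone marrow SMP and 0 to 5729 in spleen SMP. The part of these marker shifts in the SMP, MEP and whole tissue results was not tested.

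Lymphoid markers were lower in crisis spleen. In whole spleen all 8 B cell markers and all 10 T and NK cell markers were called lower, with summed B cell markers at 7.86 to 17.3 (in units of 1000 rescaled counts) in crisis and 124 to 142 in young WT. Of 10 macrophage markers 3 were lower there, and their sums overlapped at 23.4 to 82.98 in crisis and 42.6 to 80.3 in young WT. Macrophage markers in bone marrow SMP summed to 3.86 to 8.07 in crisis and 4.49 to 5.89 in young WT, with Marco listed at 0 in all 3 young WT libraries. The part of these in the whole spleen changes of Slc39a10 and the other members was not tested.

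The list of 22 other zinc transporters and metallothioneins had 20 in the table and 15 to 17 tested in each population. In whole spleen 2 were higher and 6 lower of 17, close to the 46.3% of all genes called there (median log2 change of -0.44, against -0.05 for all genes). Slc30a4, a vesicular zinc transporter, fell by 2.54 there on the log2 scale (SE 0.261, limma, adjusted p = 0.000117), Slc39a4 fell by 2.39 (SE 0.46, adjusted p = 0.00283) and Slc39a14 fell by 0.97 (SE 0.227, adjusted p = 0.00725). Slc30a5 fell by 0.70 in whole bone marrow (SE 0.16, adjusted p = 0.037), 1 of 17 tested. No gene of the list was called in either MEP population.

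Slc30a10, whose protein exports manganese, rose in whole spleen and in both SMP populations. The log2 change was 3.48 in bone marrow SMP (SE 0.709, limma, adjusted p = 0.0492), 1.55 in whole spleen (SE 0.205, adjusted p = 0.000431) and 2.56 in spleen SMP (SE 0.762, adjusted p = 0.0413). It was the only one of 16 tested in each SMP population to be called, where 23.6% of all genes were called in spleen SMP and 2.36% in bone marrow SMP. These shares moved with single libraries. In bone marrow SMP 360 genes were called with all libraries and 5 to 2957 with 1 left out. In spleen SMP 0 genes were called without young WT mouse 2805 or 2810 or crisis mouse 2953. The level of Slc30a10 in bone marrow SMP was 37 to 162 rescaled counts in crisis and 2.6 to 10.7 in young WT. In MEP it was not called, at 778 to 1907 in crisis and 1362 to 1581 in young WT spleen.

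**Figure D5:**
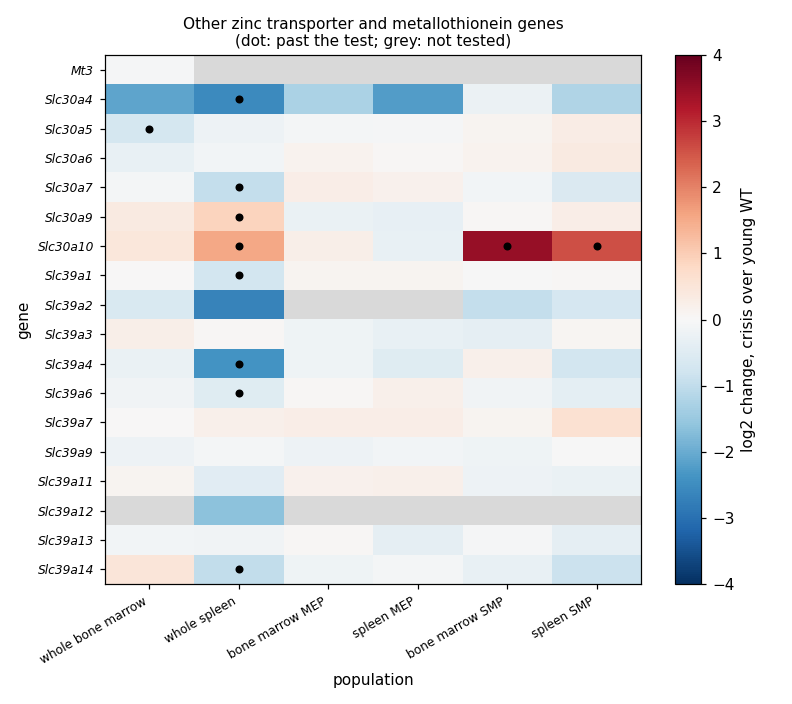
Log2 change in crisis over young WT for the other zinc transporter and metallothionein genes tested in at least 1 of the 6 populations (colour scale from -4 to 4; dots passed limma's test, grey was not tested). Slc30a10 passed as higher in both SMP populations and in whole spleen, where 6 genes of the list passed as lower.

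Lists for other known inducers of metallothioneins were counted in the same way, and their counts stand beside 46.3% of all genes called in whole spleen, 8.85% in whole bone marrow, 23.6% in spleen SMP, 2.36% in bone marrow SMP, 1.17% in spleen MEP and 0.197% in bone marrow MEP. Of 10 glucocorticoid-induced genes 3 were higher in whole bone marrow, 4 were higher and 1 lower in whole spleen, 1 was higher in bone marrow MEP, 2 in spleen SMP and 4 in bone marrow SMP, and 0 were called in spleen MEP. Their summed level in spleen MEP was 10.5 to 18.3 in crisis and 4.93 to 10.1 in young WT, in units of 1000 rescaled counts, which did not overlap. Per1, a clock gene, was higher by 2.61 in bone marrow MEP, 2.05 in bone marrow SMP, 2.03 in whole bone marrow, 1.85 in whole spleen and 1.22 in spleen SMP on the log2 scale. Klf9, a transcription factor, was higher by 1.63 in spleen SMP and 2.004 in bone marrow SMP. The median of the list was a log2 change of -0.20 in spleen SMP and 0.71 in bone marrow SMP, against -0.04 and 0.00 for all genes.

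Of 10 oxidative stress genes of the NRF2 response, 8 were higher in whole spleen, 3 in whole bone marrow, 6 in spleen SMP, 1 in bone marrow SMP, 1 in spleen MEP and 0 in bone marrow MEP. Gclm, a subunit of the enzyme that starts glutathione synthesis, was higher by 1.09 in spleen SMP and 0.67 in bone marrow SMP on the log2 scale. Among 12 copper genes, 4 were higher in whole spleen, 6 higher and 2 lower in spleen SMP, and 0 were called in bone marrow SMP and both MEP populations. Atp7b, a copper exporter, was higher by 2.71 in spleen SMP (SE 0.52, limma, adjusted p = 0.0277). Heat shock genes were called in 3 of 8 in whole spleen, all higher, and in at most 2 elsewhere. Alad, the zinc-dependent second enzyme of heme synthesis, was among the zinc proteins called higher in both whole tissues and both SMP populations, with a log2 change of 1.56 in spleen SMP (SE 0.287, limma, adjusted p = 0.0277). The spleen SMP calls of all these lists were lost without young WT mouse 2805 or 2810 or crisis mouse 2953, where 0 genes were called. In bone marrow SMP 360 genes were called with all libraries and 5 to 2957 with 1 left out. Which genes of the lists kept their calls there was not examined. Whether any of these lists bears on Mt1 and Mt2 was not tested.

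In remission, metallothionein levels lay below those of crisis. Mt2 was lower than in every crisis library in 6 of 6 populations and Mt1 in 5 of 6. The exception was spleen SMP, where 1 remission mouse had 4516 and the lowest crisis mouse 4477. These counts include bone marrow SMP, whose crisis libraries chose the genes, and the populations share the crisis mice. The share of all genes that lay apart between remission and crisis was not counted. None of the 34 member tests of remission against crisis passed limma's test, and almost no gene did: 0 to 0.00693% of all genes were called in the 5 tested populations, with 951 to 3242 genes at an unadjusted p under 0.05. Bone marrow SMP is described only; 1.25% of all genes were called and 0.42% were called lower. Without crisis mouse 2608, Mt1 and Mt2 were called lower in whole bone marrow (1056 genes called in all), and Mt1, Mt2 and Slc30a2 in spleen SMP (1934 genes). The regularised values deposited by the authors called 0 members as well.

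In whole bone marrow Mt2 had 136, 357 and 411 in remission mice, against 1099, 3165 and 4963 in crisis mice, and older WT mice had 999 and 171. In whole spleen Mt2 had 96.5, 1597 and 955 in remission mice, against 3349.9, 5891 and 12553 in crisis mice, and the 1 older WT mouse had 231. In bone marrow SMP Mt2 had 47.5, 59.3 and 101 in remission mice, against 861, 2360.2 and 7410.4 in crisis mice, and older WT mice had 259 and 35.3. The lowest value among remission mice belongs to mouse 2726 in each of the 3, and the higher older WT value in bone marrow to mouse 27265. The log2 change of Mt2 in remission over crisis was -3.24 in whole bone marrow (SE 0.732, limma, adjusted p = 0.135), -3.57 in whole spleen (SE 0.925, adjusted p = 0.133) and -3.32 in spleen SMP (SE 0.801, adjusted p = 0.197).

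Remission set against older WT mice gave 0 of 41 member calls in limma, with 0 to 0.0129% of all genes called. The largest differences were in spleen SMP. Mt2 had 609.5, 3401 and 692 there in remission mice, against 76.2 in the 1 older WT mouse, and Mt1 had 1595, 4516 and 1251 in remission mice, against 326. All 3 remission libraries stood above the WT library for both genes, and for every other member as well, Slc39a10 included. The share of all genes that lay above this 1 library was not counted. The log2 change was 3.87 for Mt2 and 2.67 for Mt1 (adjusted p = 0.587 each), and the single WT library is assumed to vary like the other groups. The remission mouse with the highest values, 2868, was 58 days old and the other remission mice 32 and 33 days, against 32 days for the WT mouse, so ages were not matched. Mice 2726 and 27265 gave no spleen SMP library.

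Without mice 2726 and 27265 whole spleen gave calls, and the members in the other populations that held them gave 0. Mt2 fell by 2.36 on the log2 scale in remission relative to crisis (SE 0.486, limma, adjusted p = 0.0352), the 1 member called where 3.25% of all genes were. Relative to older WT, 5 members were called higher and 1 lower in remission, where 29% of all genes were called. That fit sets 2 remission libraries against 1 WT library, which gives no spread of its own and is assumed to vary like the others, and with mouse 2726 kept 0 genes were called. Mt2 was higher by 2.41 (SE 0.653, adjusted p = 0.0226), Mt1 by 1.92 (SE 0.558, adjusted p = 0.0295), Slc39a8 by 2.09 (SE 0.368, adjusted p = 0.00247), Slc30a1 by 1.47 (SE 0.302, adjusted p = 0.00511) and Mtf1 by 0.91 (SE 0.252, adjusted p = 0.0215). Slc39a10 fell by 1.17 (SE 0.323, adjusted p = 0.021). Slc30a1 had 4750.1 and 4808 in the 2 remaining remission mice, against 1716 in the older WT mouse, so the remission values lay near the crisis values of 4853, 4938 and 2865.

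Crisis in spleen was set against crisis in bone marrow through the difference of the 2 changes. None of 14 member tests was called by limma, with 18.1% of all genes called in whole tissue and 0% in MEP, where 173 genes had an unadjusted p under 0.05. In whole tissue the difference was -0.08 for Mt2 (SE 0.801, adjusted p = 0.959) and 0.15 for Mt1 (SE 0.664, adjusted p = 0.904). The furthest from 0 was Slc39a8 (0.83, SE 0.332, adjusted p = 0.101), followed by Slc30a2 (0.71) and Slc30a1 (0.61, SE 0.279, adjusted p = 0.15). Slc39a8 and Slc30a1 were called without the whole spleen library of crisis mouse 2953. In SMP the difference was -1.87 for Mt2 and -0.69 for Mt1, described only, as bone marrow SMP enters it. Mt1 and Mt2 were chosen for their large change in bone marrow SMP, which favours a negative difference, so nothing is read from its sign.

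Set on 1 scale over all populations, metallothionein levels in young WT mice were highest in MEP of both tissues. Mt1 averaged 3055 ± 355 in spleen MEP and 2434 ± 460 in bone marrow MEP, which overlapped, then 798 ± 194 in whole spleen, 533 ± 184 in spleen SMP, 489 ± 173 in whole bone marrow and 99.1 ± 42.5 in bone marrow SMP (SD, n = 3 each). Bone marrow SMP stood apart from its neighbour, and whole spleen from bone marrow MEP. The crisis and young WT libraries of bone marrow SMP chose Mt1 and Mt2, so the places of both genes there are described only. In crisis the Mt1 means ran from 9246 in spleen MEP through 8909 in spleen SMP, 8403 in bone marrow MEP, 4867 in whole spleen and 2957 in bone marrow SMP to 2569 in whole bone marrow, and every pair of neighbours overlapped. Mt2 in young WT mice ran from 2130.2 ± 440 in spleen MEP to 19.0 ± 19.6 in bone marrow SMP (SD, n = 3 each).

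Slc39a8 was also highest in MEP of young WT mice, at 6423 ± 484 in spleen and 4937 ± 451 in bone marrow, and lowest in bone marrow SMP at 781 ± 205. Slc39a10 ran the other way, at 4563 ± 125 in bone marrow SMP, 3342 ± 244 in spleen SMP and 2402 ± 249 in bone marrow MEP (SD, n = 3 each), each apart from the next. Slc30a1 was highest in whole spleen, at 1708 ± 198, and lowest in bone marrow SMP, at 728 ± 104. Mtf1 was highest in spleen MEP, at 3443 ± 148, and lowest in bone marrow SMP, at 1171 ± 58.9.

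Per kilobase of principal transcript, the members can be set beside each other. In bone marrow MEP of young WT mice Mt1 led at 4433 ± 837 jointly rescaled counts per kilobase, followed by Mt2 (2389 ± 631), Slc39a8 (1397 ± 128), Slc39a10 (437 ± 45.2) and Mtf1 (396 ± 24.6). In bone marrow SMP of young WT mice Slc39a10 led at 829.9 ± 22.8 per kilobase, above Mt1 (180.5 ± 77.3) and Mt2 (37.2 ± 38.4). In bone marrow SMP in crisis Mt2 (6413 ± 6155) and Mt1 (5387 ± 4249) led, with Slc39a10 at 561 ± 114 (SD, n = 3 each). Both bone marrow SMP groups entered the choice of Mt1 and Mt2, so the places of these genes there are described only.

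MEP were then tested against SMP, without pairing the libraries that share a mouse. Of 24 member tests 17 were called, 12 higher and 5 lower in MEP, where 71.4% of all genes were called in bone marrow and 66.2% in spleen of young WT mice, and 50.3% in bone marrow and 18.6% in spleen in crisis. In spleen of young WT mice Mt2 was higher in MEP by 3.37 on the log2 scale (SE 0.395, limma, adjusted p = 0.000272) and Mt1 by 2.67 (SE 0.232, adjusted p = 5.42e-05). In spleen in crisis the same differences were 0.60 for Mt2 (SE 0.611, adjusted p = 0.52) and 0.24 for Mt1 (SE 0.423, adjusted p = 0.722). Whether the difference between MEP and SMP changed between crisis and WT was not tested. In bone marrow the differences are described only, at 6.43 for Mt2 and 4.78 for Mt1 in young WT mice.

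Slc39a8 and Mtf1 were higher in MEP in each of the 4 comparisons. Slc39a8 differed by 2.27 in bone marrow in crisis (SE 0.217, limma, adjusted p = 0.000213), 2.80 in bone marrow of young WT mice (SE 0.212, adjusted p = 5.83e-05), 1.45 in spleen in crisis (SE 0.36, adjusted p = 0.0265) and 2.88 in spleen of young WT mice (SE 0.107, adjusted p = 2.29e-06). Slc30a2 was lower in MEP of spleen, by a log2 difference of -3.26 in crisis (SE 0.822, adjusted p = 0.0279) and -3.11 in young WT mice (SE 0.831, adjusted p = 0.0112). Slc39a10 was lower in MEP in 3 of the 4 comparisons, all but spleen in crisis, with -0.82 in bone marrow of young WT mice (SE 0.0851, adjusted p = 7.2e-05). The bone marrow call of Slc39a10 in crisis (adjusted p = 0.0486) was lost without either library of mouse 2608, the SMP library of 2629 or the MEP library of 2953 (adjusted p up to 0.155). Leaving out 1 library ended each of the spleen calls in crisis: that of Mtf1 without any MEP library or the SMP library of mouse 2608 or 2953, that of Slc39a8 without either library of mouse 2608, the MEP library of 2629 or the SMP library of 2953, and that of Slc30a2 without either library of 2608 or the SMP library of 2953 (limma, adjusted p of 0.0512 to 0.142). Without rescaling Mtf1 was not called in spleen (adjusted p = 0.289 in crisis and 0.394 in young WT mice). With all 12 late erythroid markers called higher in bone marrow MEP of young WT mice, their part in these differences was not tested.

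The genes most alike to each member were found over 63 libraries, centred by population, among 13129 genes, as a description without a test. Libraries of 1 mouse share that mouse. The libraries of bone marrow SMP are included, whose crisis and young WT groups chose Mt1 and Mt2. For Mt1 and Mt2 this favours genes that also changed there. The correlations without bone marrow SMP were not examined. Mt1 was closest to Mt2 (Pearson r = 0.989), then to Rhag (0.938), Crip2 (0.938), Add2 (0.923) and Clca3a1 (0.916). Mt2 was closest to Mt1, then to Rhag (0.932), Clca3a1 (0.931), Crip2 (0.926) and Klf9 (0.922). Rhag and Add2 encode proteins of the red cell membrane and its skeleton. Slc39a8 was closest to Abcb6 (0.949), a porphyrin transporter, Mtf1 to Nploc4 (0.902), Slc30a1 to Rab18 (0.885), Slc30a2 to 0610040J01Rik (0.745) and Slc39a10 to Hif1a (0.843). Among the members Mt1 correlated with Slc39a8 at 0.69, with Slc30a2 at 0.648, with Mtf1 at 0.634, with Slc30a1 at 0.574 and with Slc39a10 at -0.576.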

How the data were processed

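Libraries of mRNA from sorted cells and whole tissue were made with KAPA mRNA HyperPrep from total RNA, per the labels' protocols. The submitters' processing notes name Bowtie2 2.2.0, RSEM, DESeq2 and GRCm38, with no role or order. The authors deposited normalised counts (a signal scaled between libraries, 26286 genes) and regularised log2 values (25287 genes). Symbols for 25607 identifiers came from GENCODE. The normalised counts do not give whole reads back, so no count test was run and depth is known only as normalised totals.

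Counts were rescaled by median ratios over the libraries fitted, genes with a mean under 10 left out, and log2(value + 1) tested with limma 3.58.1 in R 4.3.3 (trended, robust), with Benjamini-Hochberg adjustment over all genes and a threshold of 0.05. Fold changes on this scale understate low genes. Crisis and young WT were fitted alone, and remission with all 4 groups. Tables and figures used Python 3.11.15, pandas 2.3.3, numpy 2.4.6 and matplotlib 3.10.9. With 3 against 3 libraries an exact permutation test cannot go below 0.1, so none was used. The tests were checked on simulated data.

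Groups came from the labels, and 1 whole spleen library whose labels contradict each other was assigned to none. The members and gene lists were chosen with earlier results of these data known, and genes outside the members were named as the 4 or fewer of a list with the largest called change. Libraries of the same mouse pair the tissues and cell types, as the labels give the mouse; libraries sharing a mouse correlated at 0.188 to 0.551, and the fit with the mouse as a block is an alternative. Other alternatives were no rescaling, a pseudocount of 10, no filter, the regularised log2 values, other groups in the fit or as control, and leaving out each library or the 2 doubted mice.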

Additional observations from a re-analysis of the deposited data

Results flagged for a closer look

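The whole spleen library of mouse 27265 that was put in no group lay above all WT whole spleen libraries for 5 members. It had 2440 rescaled counts of Mt1, against 452 to 999.7 in WT libraries, and 2310 of Mt2, against 231 to 464. Its level was 4050 for Mtf1, 3650 for Slc30a1 and 3000 for Slc39a8, against at most 3135, 1936 and 1827 in WT libraries. Its labels name a mutant in partial remission, while the other libraries of that mouse are labelled WT. Its Mt2 to Mt1 ratio was 0.946.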

How the results depend on the processing

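With each library left out in turn, the changes of Mt1 and Mt2 in crisis over young WT kept their direction. Mt1 stayed within 1.93 to 2.73 in whole bone marrow, 1.99 to 2.88 in whole spleen, 1.32 to 2.09 in bone marrow MEP, 1.33 to 1.73 in spleen MEP, 4.08 to 5.26 in bone marrow SMP and 3.65 to 4.59 in spleen SMP, and Mt2 within 3.57 to 4.65, 3.49 to 4.47, 2.74 to 3.69, 2.42 to 2.88, 6.54 to 8.11 and 4.97 to 6.34 in the same order. Members called ranged from 12 to 19 for crisis against young WT, 0 to 3 for remission against crisis, 0 to 6 for remission against older WT, 0 to 2 for spleen against bone marrow and 14 to 18 for MEP against SMP. Fewer libraries were fitted in each, and a lone library is assumed to vary like the other groups. Without rescaling, bone marrow MEP passed for Mt1 (1.64, limma, adjusted p = 1.21e-06) and Mt2 (3.10, adjusted p = 1.8e-13), and Slc30a1 in spleen MEP over SMP of young WT mice turned to -0.14 (adjusted p = 0.724). With all 4 groups in the fit, spleen MEP missed the threshold for Mt1 (1.56, adjusted p = 0.0778) and Mt2 (2.67, adjusted p = 0.0645). With all WT mice as control, 10 members were called, Mt1 and Mt2 missed it in whole bone marrow (1.996, adjusted p = 0.0559, and 3.48, adjusted p = 0.0545) and spleen MEP (1.19, adjusted p = 0.107, and 2.13, adjusted p = 0.0688), and Mt2 in bone marrow SMP was 6.27. Without mice 2726 and 27265, 1 member was called for remission against crisis and 6 against older WT. The causes were not tested. With the mouse as a replicate block, members called were 0 for spleen against bone marrow. For MEP against SMP they were 19, against 17 without the block. Spleen MEP and SMP of young WT mice come from different mice, so that comparison could not be blocked. The other MEP and SMP libraries compared come from the same mice, and the main fit left that pairing out. Crisis, remission and WT groups are different mice, so comparisons between states could not be paired. Groups of 1 to 3 libraries limit all of these.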
